A study of Mus musculus with 8 samples.

Results

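The 10 genes described here are targets of the DNA damage regulator p53 that are known for a part in cell death: Bbc3, Pmaip1, Apaf1, Aen, Fas, Tnfrsf10b, Eda2r, Ei24, Perp and Ddias. They were chosen by name, each was read from the 1 probe set that the platform annotation maps to its symbol alone, and all 10 were among the 22180 genes measured. No filter on low values was applied. The arrays held RNA of host myeloid cells sorted as CD45+ CD11b+ Ly6Chi, the surface profile of inflammatory monocytes and macrophages, from subcutaneous tumours in female C57BL/6 mice that were 8 weeks old at implantation. In 4 mice the tumour had received 20 Gy, and in 4 mice it had received a sham treatment; both groups were harvested 1 day later, 14 days of tumour growth having preceded the treatment. All tumours grew from a single line, PDAC 152, which arose in mice carrying KrasLSL-G12D/+, Trp53LSL-R172H/+ and Pdx1-Cre, so the mutant p53 allele belonged to the tumour cells and not to the hosts. Each mouse gave 1 array.

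When DNA is broken, p53 is stabilised and switches on genes that stop the cell cycle, repair DNA or kill the cell. The death genes act at several points. The BH3-only proteins PUMA (Bbc3) and NOXA (Pmaip1) neutralise protective BCL2 proteins at the mitochondrion, and APAF1 then assembles with released cytochrome c to activate a caspase. Death receptors such as FAS and the TRAIL receptor (Tnfrsf10b) start a caspase cascade from the cell surface when a neighbouring cell presents their ligand. Human monocytes are known to be more sensitive to DNA damage than the macrophages they give rise to.

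After 20 Gy, 9 of the 10 genes had a higher mean in irradiated than in sham mice, and in 4 of them, Ddias, Tnfrsf10b, Aen and Ei24, every irradiated mouse lay above every sham mouse. Over all genes, 42.2% had a higher mean in irradiated mice, and 1.12% had all irradiated mice above all sham mice. At an unadjusted p under 0.05 in limma, 5 of the 10 were higher (those 4 and Bbc3) and 0 lower, where 2.05% of all genes were higher and 4.03% lower. None of the 10 passed after adjustment over all 22180 genes, and 0% of all genes did, the smallest adjusted p being 0.545. The median difference of the 10 was 0.26 on the log2 scale, against -0.03 over all genes. Sham mice 2 and 3 had the highest T and NK cell marker means. Without them 3 of the 10 were higher at an unadjusted p under 0.05 (Ddias, Tnfrsf10b and Aen). With the T and NK marker mean as a covariate 5 were at that p, with Perp in place of Bbc3. The number with no overlap was 4 without sham mice 2 and 3. Leaving arrays out cannot lower that number, so it does not test dependence on these mice. Levels are compared only within a gene, because different probe sets are not on a common scale, and in bulk RNA of sorted cells fewer cells of a type and less RNA per cell cannot be told apart.

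**Figure D1:**
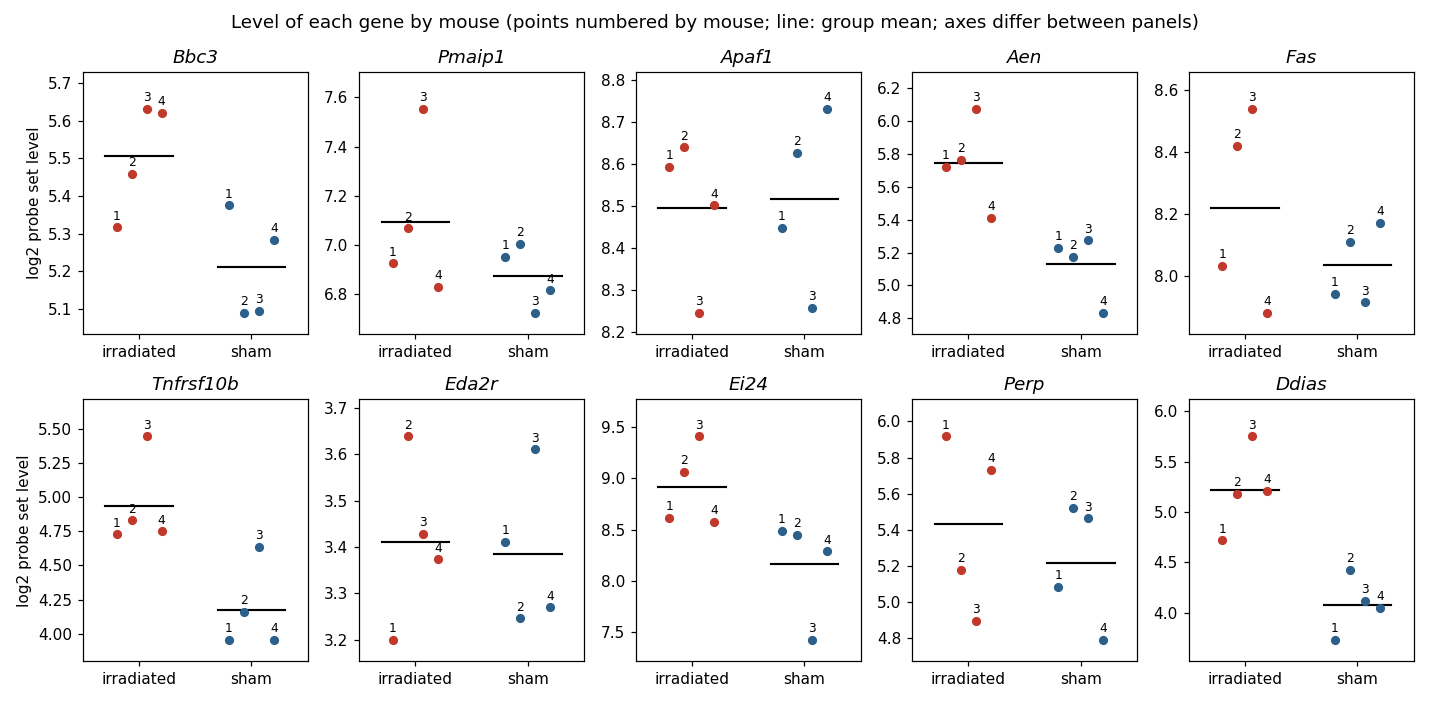
Log2 probe set level (vertical axis, range set per gene) of each of the 10 genes in irradiated mice (left) and sham mice (right), with points numbered by mouse and a line at the group mean. The groups separate for Aen, Tnfrsf10b, Ei24 and Ddias and overlap for the other 6 genes, and irradiated mouse 3 holds the highest point in 7 panels.

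A match to the p53 response element stood near the start of transcription in 2 of the 7 genes whose promoter letters were at hand. RefSeq promoter windows of 250 bases before and 50 bases after a start (GRCm38.p6) were found for 7 of the 10 genes and searched for the p53 response element, a pair of adjoining half-sites of 10 bases each, with the core of both half-sites (C, then A or T at both middle positions, then G) kept exact and up to 3 mismatches allowed at the 12 other positions; the element reads alike on both strands. A match was found for Bbc3 and Aen, at 3 mismatches each, and in 0.673% of the 27025 genes in the table. Cutoffs from 0 to 5 mismatches were tried, and 3 was the lowest at which any of the 7 genes matched. At 2 or fewer mismatches 0 of the 7 matched, against 0.189% of genes in the table. At up to 5 the same 2 matched, against 2.879%. Both matches, the only ones among the 7 genes, are shown with 5 flanking bases on either side and the exact cores in capitals.
Bbc3: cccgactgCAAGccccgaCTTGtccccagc
Aen: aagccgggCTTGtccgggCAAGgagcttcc
The Bbc3 stretch lies at chr7:16309481-16309510 on the plus strand, with its element beginning 97 bases before a start that is among 3 listed. The Aen stretch lies at chr7:78895932-78895961 on the plus strand, with its element beginning 11 bases into the transcript of a start that is among 2 listed. A single exact half-site was present for Aen and Ei24, and for 9.55% of genes in the table. The windows of Fas, Apaf1, Ei24, Eda2r and Ddias held no match to the full element, which says only that those letters are not in these windows.

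Of the mitochondrial pathway genes, Bbc3 had a modestly higher mean after irradiation, at a p that depended on single arrays, and Pmaip1 and Apaf1 were not separable between the groups. Bbc3, which encodes PUMA, stood at 5.32, 5.46, 5.63 and 5.62 in irradiated mice 1 to 4, against 5.38, 5.09, 5.10 and 5.28 in sham mice 1 to 4. In 3 of the 4 irradiated mice it lay above all sham mice, and irradiated mouse 1 lay below sham mouse 1. The group means were 5.51 ± 0.15 in irradiated and 5.21 ± 0.14 in sham mice (SD, n = 4 each), a difference of 0.30 ± 0.12 (SE) or 1.23-fold, with an unadjusted p of 0.0277 and an adjusted p of 0.819 in limma. An exact permutation over the 70 assignments of arrays to groups gave Bbc3 a p of 0.0571, the smallest possible being 0.0286. Without sham mice 2 and 3 the Bbc3 difference was 0.18, with an unadjusted p of 0.236 in limma. Leaving out a single array also took Bbc3 past 0.05, with an unadjusted p of 0.0734 without sham mouse 2, 0.0700 without sham mouse 3, 0.0741 without irradiated mouse 3 and 0.0733 without irradiated mouse 4, and the T and NK marker mean as a covariate gave 0.0621.

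Pmaip1, which encodes NOXA, the BH3-only protein that binds MCL1, stood at 6.93, 7.07, 7.55 and 6.83 in irradiated mice 1 to 4, against 6.95, 7.01, 6.72 and 6.82 in sham mice 1 to 4. Irradiated mouse 3 stood apart by 0.49 from the next irradiated mouse, and the other irradiated mice lay among or close to the sham mice. The difference of 0.22 (95% interval -0.13 to 0.57) was 0.07 without irradiated mouse 3. Apaf1, the scaffold of the apoptosome, stood at 8.59, 8.64, 8.25 and 8.50 in irradiated mice 1 to 4, against 8.45, 8.63, 8.26 and 8.73 in sham mice 1 to 4. Its groups overlapped over nearly their whole range, and the difference of -0.02 had a 95% interval of -0.32 to 0.28.

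Aen encodes an exonuclease that p53 induces and that degrades DNA in dying cells, as shown in human cells. It stood at 5.72, 5.76, 6.07 and 5.41 in irradiated mice 1 to 4, against 5.23, 5.17, 5.27 and 4.83 in sham mice 1 to 4. The lowest irradiated mouse, mouse 4, lay 0.14 above the highest sham mouse. The means were 5.74 ± 0.27 in irradiated and 5.13 ± 0.20 in sham mice (SD, n = 4 each), a difference of 0.61 ± 0.15 (SE) or 1.53-fold, with an unadjusted p of 0.00254 and an adjusted p of 0.819. When single arrays were left out, the Aen difference stayed between 0.50 and 0.72.

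Among the receptors, the TRAIL receptor gene separated the groups and Fas and Eda2r did not. Tnfrsf10b encodes the only TRAIL receptor of the mouse that carries a death domain. Its level was 4.73, 4.83, 5.44 and 4.75 in irradiated mice 1 to 4, against 3.96, 4.16, 4.63 and 3.95 in sham mice 1 to 4. Irradiated mouse 3 was highest, and sham mouse 3 came within 0.09 of the lowest irradiated mouse. The means were 4.94 ± 0.34 in irradiated and 4.18 ± 0.32 in sham mice (SD, n = 4 each), a difference of 0.76 ± 0.20 (SE) or 1.70-fold, with an unadjusted p of 0.00317 and an adjusted p of 0.819. The mean over all arrays was 4.56, under the 4.70 that is the median of all probe sets, so the true size of the difference is uncertain.

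Fas, the receptor that cytotoxic lymphocytes engage to kill a target cell, stood at 8.03, 8.42, 8.54 and 7.88 in irradiated mice 1 to 4, against 7.94, 8.11, 7.91 and 8.17 in sham mice 1 to 4. Irradiated mice 2 and 3 lay above all sham mice, while irradiated mice 1 and 4 lay within or below the sham range. The Fas difference was 0.18 (95% interval -0.16 to 0.53), or 0.08 without irradiated mouse 3, 0.12 without irradiated mouse 2 and 0.30 without irradiated mouse 4. Eda2r encodes the receptor of ectodysplasin A2, a p53-induced member of the same receptor family that lacks a death domain. It lay between 3.20 and 3.64 in irradiated mice and between 3.25 and 3.61 in sham mice. These levels are low on the array and the groups overlapped fully, with a difference of 0.03 (95% interval -0.26 to 0.31).

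The ligands of these receptors did not separate the groups. Fasl, which encodes the FAS ligand of T and NK cells, stood at 4.66, 4.17, 4.36 and 5.26 in irradiated mice 1 to 4, against 4.12, 5.44, 5.30 and 4.23 in sham mice 1 to 4. The 4 arrays with the highest Fasl were irradiated mice 1 and 4 and sham mice 2 and 3, which were also the 4 arrays with the highest mean of T and NK cell markers. Tnfsf10, which encodes TRAIL, stood at 6.32 in irradiated mouse 1 and between 4.35 and 4.92 in the other 3 irradiated mice, against 4.72 to 5.20 in sham mice. Irradiated mouse 1 was also the array with the highest mean of type I interferon response genes, at 9.34. Eda, which encodes ectodysplasin, differed by -0.15 (95% interval -0.45 to 0.15).

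**Figure D2:**
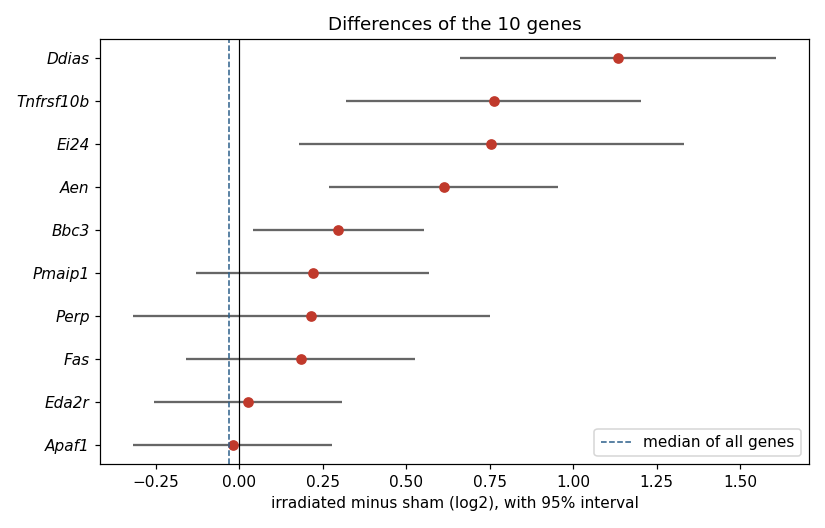
Difference of each of the 10 genes, irradiated minus sham on the log2 scale (horizontal axis), with its 95% interval from the limma fit; the dashed line marks the median of all genes at -0.03. The intervals of Ddias, Tnfrsf10b, Ei24, Aen and Bbc3 lie above 0, and those of the other 5 genes span it.

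Of the 3 remaining genes, Ddias had the largest difference of the 10 and Ei24 a smaller one, while Perp varied along another line. Ddias encodes the DNA damage-induced apoptosis suppressor, also called noxin, whose known role in human cells is to hold back cell death, so its name in a list of death effectors does not match that role. It stood at 4.72, 5.18, 5.75 and 5.21 in irradiated mice 1 to 4, against 3.73, 4.43, 4.12 and 4.05 in sham mice 1 to 4. The lowest irradiated mouse lay 0.29 above the highest sham mouse, the widest gap of the 10 genes. The means were 5.22 ± 0.42 in irradiated and 4.08 ± 0.29 in sham mice (SD, n = 4 each), a difference of 1.13 ± 0.21 (SE) or 2.20-fold, with an unadjusted p of 0.00032 and an adjusted p of 0.545. Leaving out irradiated mouse 3 gave a Ddias difference of 0.96, and leaving out irradiated mouse 1 gave 1.30. By unadjusted p it was the 6th of all genes on the higher side. The mean over all arrays, 4.65, was under the median of all probe sets, so for Ddias too the true size of the difference is uncertain.

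Ei24, also called PIG8, encodes a membrane protein of the endoplasmic reticulum that p53 induces and that takes part in autophagy. It stood at 8.62, 9.07, 9.41 and 8.57 in irradiated mice 1 to 4, against 8.49, 8.45, 7.42 and 8.29 in sham mice 1 to 4. The groups were apart by only 0.08, between irradiated mouse 4 and sham mouse 1, and sham mouse 3 was the lowest array by a wide step. The means were 8.92 ± 0.40 in irradiated and 8.16 ± 0.50 in sham mice (SD, n = 4 each), a difference of 0.76 ± 0.26 (SE) or 1.69-fold, with an unadjusted p of 0.0154 and an adjusted p of 0.819. The difference was 0.51 without sham mouse 3. Sham mouse 3 also had the highest means of neutrophil markers, at 8.36, and of T and NK cell markers, at 7.70; the part of neutrophil signal in the Ei24 level was not tested. With the T and NK marker mean as a covariate the Ei24 difference was 0.57, with an unadjusted p of 0.0218. Without sham mice 2 and 3 together it was 0.53, with an unadjusted p of 0.0568 in limma.

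Perp encodes a membrane protein of desmosomes, abundant in epithelia, that p53 induces in apoptotic cells. It stood at 5.92, 5.18, 4.90 and 5.73 in irradiated mice 1 to 4, against 5.09, 5.52, 5.46 and 4.79 in sham mice 1 to 4. The spread within each group was wider than the difference between them, which was 0.22 (95% interval -0.32 to 0.75), or 0.05 without irradiated mouse 1, 0.07 without sham mouse 4, 0.11 without irradiated mouse 4 and 0.39 without irradiated mouse 3. The 4 arrays with the highest Perp, irradiated mice 1 and 4 and sham mice 2 and 3, were the 4 with the highest mean of T and NK cell markers, which holds for 2.42% of all genes. The T and NK means were 6.70, 5.40, 5.41 and 6.61 in irradiated mice 1 to 4 and 5.42, 7.53, 7.70 and 5.74 in sham mice 1 to 4. The same 4 arrays also had the highest means of 12 fibroblast and endothelial markers, at 6.42 and 6.15 in irradiated mice 1 and 4 and 6.09 and 6.59 in sham mice 2 and 3, a list that includes Thy1, which T cells also express. The part of either list in the Perp level was not tested beyond the T and NK covariate. With the T and NK mean as a covariate the Perp difference was 0.42, with an unadjusted p of 0.0251 and an adjusted p of 0.684, where the adjusted p of Perp ran up to 0.981 over the alternatives tried. The means of 13 epithelial and tumour cell markers lay between 5.48 and 6.10 in irradiated mice and between 5.60 and 6.41 in sham mice. They were highest in sham mouse 3, at 6.41, and irradiated mouse 1, at 6.10. Irradiated mouse 3 at 5.91, sham mouse 2 at 5.89 and irradiated mouse 4 at 5.88 came next. This order was near that of Perp except in irradiated mouse 3, where Perp was low. The part of the epithelial list in the Perp level was not tested.

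The irradiated mice were not alike, and mouse 3 stood out in most of these genes. It was the highest of the 4 irradiated mice, and of all 8 arrays, for 7 of the 10 genes (Bbc3, Pmaip1, Fas, Tnfrsf10b, Aen, Ei24 and Ddias). Over all genes mouse 3 was the highest irradiated mouse in 24.9% and the highest of the 8 arrays in 11.0%. The median deviation of the 10 genes from the sham mean was 0.28, 0.32, 0.59 and 0.35 in irradiated mice 1 to 4, against -0.02, 0.09, -0.04 and -0.05 in sham mice 1 to 4. All 4 irradiated mice were thus above all sham mice, and without mouse 3 the median difference of the 10 genes was 0.32. Other lists also set mouse 3 apart. Neutrophil marker means were 5.98, 6.67, 7.19 and 6.06 in irradiated mice 1 to 4, highest in mouse 3, which was the highest irradiated mouse for 8 of those 13 genes. Of all 8 arrays mouse 3 had the highest mean of erythroid and platelet markers, at 7.25, and the lowest of monocyte and macrophage markers, at 11.07, close to sham mouse 3. In the monocyte and macrophage list, Ly6c2 was lowest in irradiated mouse 3, at 10.77. The part of these lists in the levels of the 10 genes was not tested. Mouse 3 was not the highest irradiated mouse for any of 22 type I interferon response genes, whose mean was highest in irradiated mouse 1, at 9.34, followed by irradiated mouse 2. All 22 had a higher mean after irradiation, where 42.2% of all genes did. At an unadjusted p under 0.05 in limma, 5 of them were higher, where 2.05% of all genes were. Their median difference was 0.59, larger than the 0.26 of the 10 genes. The interferon means of irradiated mice 3 and 4 were 8.12 and 8.06, against 7.78 to 8.19 in sham mice.

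**Figure D3:**
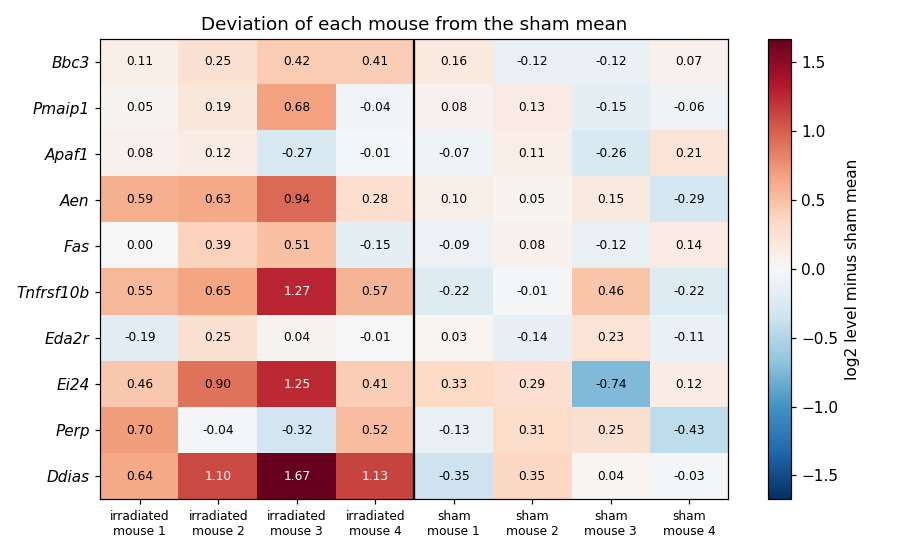
Log2 level of each gene in each mouse minus the sham mean of that gene (colour and printed value), with irradiated mice in the 4 left columns and sham mice in the 4 right columns. Ddias, Tnfrsf10b, Ei24 and Aen are above the sham mean in all 4 irradiated mice and highest in mouse 3, while Apaf1 and Eda2r stay within 0.27 of it in every irradiated mouse.

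Other genes that p53 induces were also higher on the whole, and often highest in irradiated mouse 3. Of 22 measured genes of p53 feedback, cell cycle arrest and DNA repair, 17 had a higher mean after irradiation and 5 a lower one. Over all genes 42.2% had a higher mean. At an unadjusted p under 0.05 in limma there were 9 higher and 0 lower, where 2.05% of all genes were higher and 4.03% lower. After adjustment over all genes 0 passed. The median difference of these 22 genes was 0.26. Irradiated mouse 3 was the highest irradiated mouse for 12 of them, which held for 24.9% of all genes. The 3 with the largest difference were Trp53inp1, a stress-induced cofactor of p53, at 1.27 ± 0.22 (SE), Ccng1, which encodes cyclin G1, at 1.11 ± 0.21, and Phlda3, a repressor of Akt, at 1.07 ± 0.20. The difference of Ddias was within the range of these 3. Mdm2, which encodes the ligase that limits p53, stood at 9.07, 9.82, 10.06 and 9.30 in irradiated mice 1 to 4, against 8.79 to 9.02 in sham mice, with the same order of mice 3 and 2 at the top as for Aen and Ei24. The cell cycle inhibitor gene Cdkn1a stood at 11.84, 12.15, 12.24 and 11.97 in irradiated mice 1 to 4, against 11.73, 11.58, 11.39 and 11.93 in sham mice 1 to 4. Its groups overlapped, irradiated mouse 1 lying below sham mouse 4, and mice 3 and 2 were again the highest. Many of these genes were known to be high here from earlier results on the same arrays.

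A further list of p53-induced death and autophagy genes was mixed. Of its 13 measured genes 9 were higher and 4 lower, with 2 in each direction at an unadjusted p under 0.05 and a median difference of 0.03. Over all genes 42.2% had a higher mean, and at that p 2.05% were higher and 4.03% lower. Trp53cor1, a noncoding RNA that p53 induces beside Cdkn1a, stood at 5.37 to 5.60 in irradiated mice, against 4.35 to 5.21 in sham mice, a difference of 0.62 ± 0.17 (SE). Trp53i11 differed the other way by -0.55 ± 0.21, and Pml, a nuclear body gene that interferon also induces, by 0.37 ± 0.22. Bax and Trp53 itself are not analysed here.

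The general machinery of cell death, which the death effectors feed, was close to level between the groups. Over all genes 42.2% had a higher mean in irradiated mice. At an unadjusted p under 0.05 in limma, 2.05% of all genes were higher and 4.03% lower. Of 17 measured ligands, adaptors and inhibitors of the death receptor pathway, 8 were higher and 9 lower, with a median of -0.06; 0 were higher and 1 lower at an unadjusted p under 0.05. That gene was Bid, which links death receptors to the mitochondrion. Bid stood at 5.52, 5.83, 5.78 and 5.91 in irradiated mice 1 to 4, against 5.92, 5.99, 6.07 and 6.17 in sham mice 1 to 4. Every irradiated mouse lay below every sham mouse for Bid, which held for 2.56% of all genes. Tnf differed by 0.44 ± 0.43 (SE) and the adaptor gene Fadd by -0.31 ± 0.20. The initiator caspase gene Casp8 stood at 10.11 ± 0.17 in irradiated and 10.17 ± 0.08 in sham mice (SD, n = 4 each).

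Of 25 measured genes of the mitochondrial pathway, from BCL2 family members to caspases and their inhibitors, 9 were higher and 16 lower, with a median of -0.06. Of these, 0 were higher and 1, again Bid, was lower at an unadjusted p under 0.05. Over all genes 42.2% had a higher mean, and at that p 2.05% were higher and 4.03% lower. The counts are close to these shares and are not read as a trait of the list. Aifm1, a mitochondrial flavoprotein that can fragment nuclear DNA, differed by -0.32 ± 0.15 (SE), and the caspase gene Casp6 by -0.28 ± 0.18. The partners of APAF1 in the apoptosome had differences near 0: Cycs, which encodes cytochrome c, differed by 0.03 (95% interval -0.21 to 0.26) and the caspase gene Casp9 by -0.13 (95% interval -0.37 to 0.10).

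The sorted cells carried the markers of their gate in both groups, although Ly6c2 was lowest in irradiated mouse 3. Array medians lay between 4.68 and 4.73, and the mean of 11 measured monocyte and macrophage markers lay between 11.07 and 11.22 in irradiated mice and between 11.07 and 11.21 in sham mice. Of these 11 markers, 6 had a higher mean after irradiation and 5 a lower one. At an unadjusted p under 0.05 in limma, 0 were higher and 1, Cx3cr1, was lower. Cx3cr1 differed by -0.40, with an unadjusted p of 0.0424 and an adjusted p of 0.819. Ptprc (CD45) stood at 11.62 ± 0.09 in irradiated and 11.66 ± 0.05 in sham mice, Itgam (CD11b) at 11.12 ± 0.12 in irradiated and 10.94 ± 0.18 in sham mice, and Ly6c2 at 11.76 ± 0.71 in irradiated and 11.55 ± 0.42 in sham mice (SD, n = 4 each). Markers of other cells were uneven. T and NK markers were lower in irradiated mice in 15 of 17 and B and plasma cell markers in 8 of 9. Neutrophil markers were lower in 12 of 13 and dendritic cell markers in 7 of 9. Over all genes only 42.2% had a higher mean in irradiated mice, so most genes were lower. Each of these lists, like the monocyte and macrophage list, had 1 gene lower at an unadjusted p under 0.05, where 4.03% of all genes were. A count of 1 in lists this short is not read as a trait of the list. Neutrophil means lay between 5.98 and 7.19 in irradiated mice and between 6.85 and 8.36 in sham mice, and Camp, a neutrophil granule gene, stood at 8.02 and 10.10 in sham mice 2 and 3 and no higher than 3.69 on the other arrays. B and plasma cell means lay between 4.57 and 5.49 in irradiated mice and between 4.94 and 6.10 in sham mice, and dendritic cell means between 6.27 and 6.46 in irradiated mice and between 6.38 and 6.78 in sham mice. Fibroblast and endothelial means lay between 5.32 and 6.42 in irradiated mice and between 5.15 and 6.59 in sham mice, and those of 4 erythroid and platelet markers between 6.14 and 7.25 in irradiated mice and between 5.87 and 7.14 in sham mice.

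**Figure D4:**
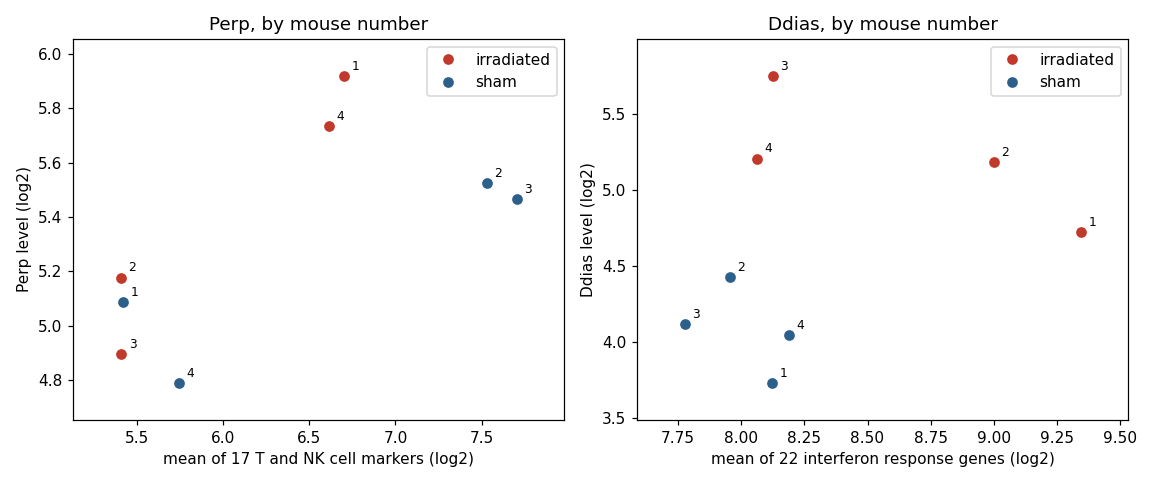
Left, the log2 level of Perp against the mean of 17 T and NK cell markers in each mouse; right, the log2 level of Ddias against the mean of 22 type I interferon response genes, with points numbered by mouse. Perp is above 5.4 on the 4 arrays with the most T and NK signal and below 5.2 on the others; those 4 arrays are also the highest for fibroblast and endothelial markers. By contrast, Ddias is highest in irradiated mouse 3, whose interferon mean of 8.12 lies within the sham range.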

How the data were processed

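Per the labels' protocols, 25 ng of total RNA per mouse was amplified by ribo-SPIA, labelled with biotin and hybridised to 1 Affymetrix array. The deposited values are log2 levels per probe set, which the authors made with RMA and Partek, per the submitters' processing notes; their versions and settings are not stated. Of 34365 probe sets, 23521 had 1 gene symbol, 1814 several and 9030 none; the highest row per symbol left 22180 genes. Groups came from the sample titles. The test was limma (version 3.58.1, R 4.3.3), two-sided with lmFit and eBayes, and p-values were adjusted by Benjamini-Hochberg over the whole table, with a threshold of 0.05; it was tested on simulated data. Single members were also tested by exact permutation over the 70 assignments of arrays to groups. SDs are over mice, and SEs and 95% intervals come from the fit. Alternatives were other normalizations, row and dim-gene rules and variance models, array weights, a mouse-number block, arrays left out and a T and NK covariate. The number of arrays limits the precision, and no batch or scan date is given. Promoter letters are RefSeq's. The members, the 13 other lists, the named genes (all members, their ligands and partners, and the leading genes of each list) and the comparison of mouse 3 with the others were chosen with earlier results of these data known. Same-numbered irradiated and sham mice deviated from their group means in opposite directions on average (r from -0.28 to -0.14), so numbers were not taken as pairs.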

Additional observations from a re-analysis of the deposited data

Results flagged for a closer look

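Tnfrsf10b in irradiated mouse 3, at 5.44, stood away from the other irradiated mice, at 4.73 to 4.83. Its gap to the nearest mouse made up 0.859 of the range of the group, above Dixon's 95% critical ratio for 4 samples. A total of 22 groups of 4 was examined in this way, and chance marks about 1 in 20. Without irradiated mouse 3 the Tnfrsf10b difference was 0.59.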

How the results depend on the processing

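The median difference of the 10 genes stayed positive under all alternatives, from 0.22 with dim genes removed to 0.35 without sham mice 2 and 3, and ranged from 0.27 to 0.32 when single arrays were left out. The number higher at an unadjusted p under 0.05 was 5, and ranged from 4 to 5 with each array left out. It was 3 with dim genes removed, where 7 of the 10 were tested, and 3 without sham mice 2 and 3. The number of genes passing the adjusted threshold was 0 throughout, the lowest adjusted p being 0.308 for Ddias. The number with no overlap ranged from 4 to 5, but leaving arrays out cannot lower it. It was 4 with quantile normalization, with a common array median and with the mean of a gene's rows. Only Apaf1 and Eda2r changed sign. Apaf1 was 0.022 with quantile normalization, 0.016 without sham mouse 2, 0.051 without sham mouse 4 and 0.062 without irradiated mouse 3, the highest, and lowest at -0.11 without sham mouse 3. Eda2r was -0.021 without sham mouse 2, -0.013 without sham mouse 4 and -0.051 without irradiated mouse 2, the lowest, and highest at 0.10 without sham mouse 3. The cause was not tested. With the mouse number as a replicate block, 4 were higher at that p, Bbc3 no longer among them (unadjusted p = 0.0604), and the median difference was 0.26. The number of arrays limits what can be called, and signal over background was not measured.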
